A study of Mus musculus with 16 samples.

Results

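The miR-30 family guide arms were followed through 6 populations of early mouse hematopoiesis. The 5 members were mmu-miR-30a, mmu-miR-30b, mmu-miR-30c, mmu-miR-30d and mmu-miR-30e, taken by exact name from the probes of the array, with the star arms of the same hairpins set aside. They are 5 of the 577 miRs on the array and carry 11 of its 1712 probes. RNA came from the bone marrow of female C57Bl/6 mice aged 6 to 8 weeks, untreated and with no engineered allele named, with 10 to 20 animals pooled for each replicate. All populations were sorted from marrow depleted of cells positive for B220, CD3, GR-1 or Ter119 and enriched for c-kit. The HSC subsets were long-term HSC (LT-HSC, 1 array), short-term HSC (ST-HSC, 3 arrays) and multipotent progenitors (MPP, 3 arrays). The myeloid progenitors were common myeloid (CMP), granulocyte-monocyte (GMP) and megakaryocyte-erythroid progenitors (MEP), with 3 arrays each.

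A miR is cut from a hairpin, and the guide arm that enters the silencing complex pairs with target mRNAs mainly through its seed, so miRs with the same seed share many predicted targets. The miR-30 family is widely expressed in mammalian tissues and is known for roles in differentiation, apoptosis and autophagy. Its hairpins lie in clusters in the mouse genome, and hairpins of a cluster can be cut from one primary transcript.

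The guide arms found in the RefSeq miR table (GRCm38.p6, 3 of the 5 members) are shown because their near identity bears on what a probe can tell apart. Bases are written 5′ to 3′, and the capitals mark the seed, bases 2 to 8.
miR-30a: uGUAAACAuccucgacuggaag
miR-30c: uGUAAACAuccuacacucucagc
miR-30e: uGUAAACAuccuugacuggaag
The seed was the same in all 3. Counted from the 5′ end, miR-30a and miR-30e differed at 1 of 22 positions, C13U. From miR-30a to miR-30c, 5 of 22 positions differed (C13A, G14C, G18C, G19U and A20C), all outside the seed. How far a probe for one member also bound another was not tested.

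The deposited array files place the probes on mm9. The brightest probe of miR-30a covers chr1:23279118-23279134 and that of miR-30c chr1:23298558-23298575, 19441 bases apart. The miR-30e probe covers chr4:120445265-120445281. On chromosome 15, the probe of miR-30b (chr15:68169031-68169047) and that of miR-30d (chr15:68172819-68172832) lie 3788 bases apart. RefSeq lists the miR-30c guide at 2 hairpins with the same 23 bases, Mir30c-2 on chromosome 1 and Mir30c-1 on chromosome 4, so its signal can come from either locus, and the share of each was not measured. Mir30c-1 and Mir30e lie within Nfyc, which encodes a subunit of the transcription factor NF-Y, while Mir30a, Mir30c-2, Mir30b and Mir30d lie within no other listed gene.

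Levels are given as log2 of the background-subtracted spot signal after quantile normalization, which gives every array the same set of values, so that a level is in effect the rank of a probe on its array. Brightness also depends on the probe, hence levels are compared between arrays for one miR and never between miRs. The 16 arrays lay on 3 slides. On slide 1, read on another scanner model, were CMP, GMP and MEP, replicates 1 and 2. On slide 2 were replicate 3 of these populations, ST-HSC 1 and LT-HSC. ST-HSC 2, ST-HSC 3 and the MPP arrays shared slide 3. The median foreground of an array was 52 to 59 units for slide 1, 32 to 36 units for slide 2 and 35.5 to 37 units for slide 3. Arrays of one slide were less alike in summed signal. LT-HSC had the least of all, 34810 units, while its slide-mates held 66237 (CMP 3) to 113362 (GMP 3). The most was 335064 units, for GMP 2. Negative control spots were brighter in slide 1 arrays, with a 95th percentile of 9.9 to 44.3 units. All other arrays had at most 3.35 units there. The part of these differences in the LT-HSC levels and the dim star arms was not tested. As only slide 2 held both HSC subsets and myeloid progenitors, values with slide as a term in the fit stand beside the results. Known markers mostly followed the labels, with miR-223 highest in GMP (14.04, against means of 9.61 to 12.7 elsewhere) and miR-451 highest in MEP (12.1). The HSC markers miR-125b-5p, miR-99a and let-7e were higher in each HSC subset than in each myeloid progenitor. The HSC marker miR-126-3p was not, with 7.20 in ST-HSC and 7.37 in CMP. Lymphoid miR-150 was highest in MPP. The LT-HSC array departed from its label, since miR-451, miR-144 and miR-486, 3 of the 3 MEP markers, stood at 11.1, 5.29 and 6.34 on it and at means of 7.44, 2.59 and 2.92 in ST-HSC. Of 6 markers of muscle, liver and stroma, 4 were well above background on 0 of 16 arrays and miR-1 and miR-133a on 1.

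All 5 members were well above background on 16 of 16 arrays. Their levels, by the brightest probe of each, moved little between populations. The SD of the 6 population means was 0.19 for miR-30a, the lowest of the 237 miRs tested, and 0.30 to 0.41 for the other 4, against a median of 0.84 over all tested miRs. Of those 237, only 105 were well above background on all arrays, and the members were not set against these alone. Other probes of a member moved more. The population means of the shorter miR-30c probe ran from 6.02 to 7.89, those of the brightest from 8.57 to 9.54. By limma's moderated F with Benjamini-Hochberg adjustment over all 237 miRs, 3 of 5 members differed across the populations, beside 82.7% of all miRs. These were miR-30b (adjusted p = 0.000762), miR-30c (0.00189) and miR-30d (0.000359). The F test did not pass for miR-30a (0.291) or miR-30e (0.0724), though miR-30e passed once slide was a term (0.00887). It also passed with the deposited values, another background correction, the mean of its probes, both scalings to a 75th percentile, no normalization and without ST-HSC 1. Under scaling to the 75th percentile of all probes miR-30a passed as well, and without normalization miR-30d did not.

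**Figure D1:**
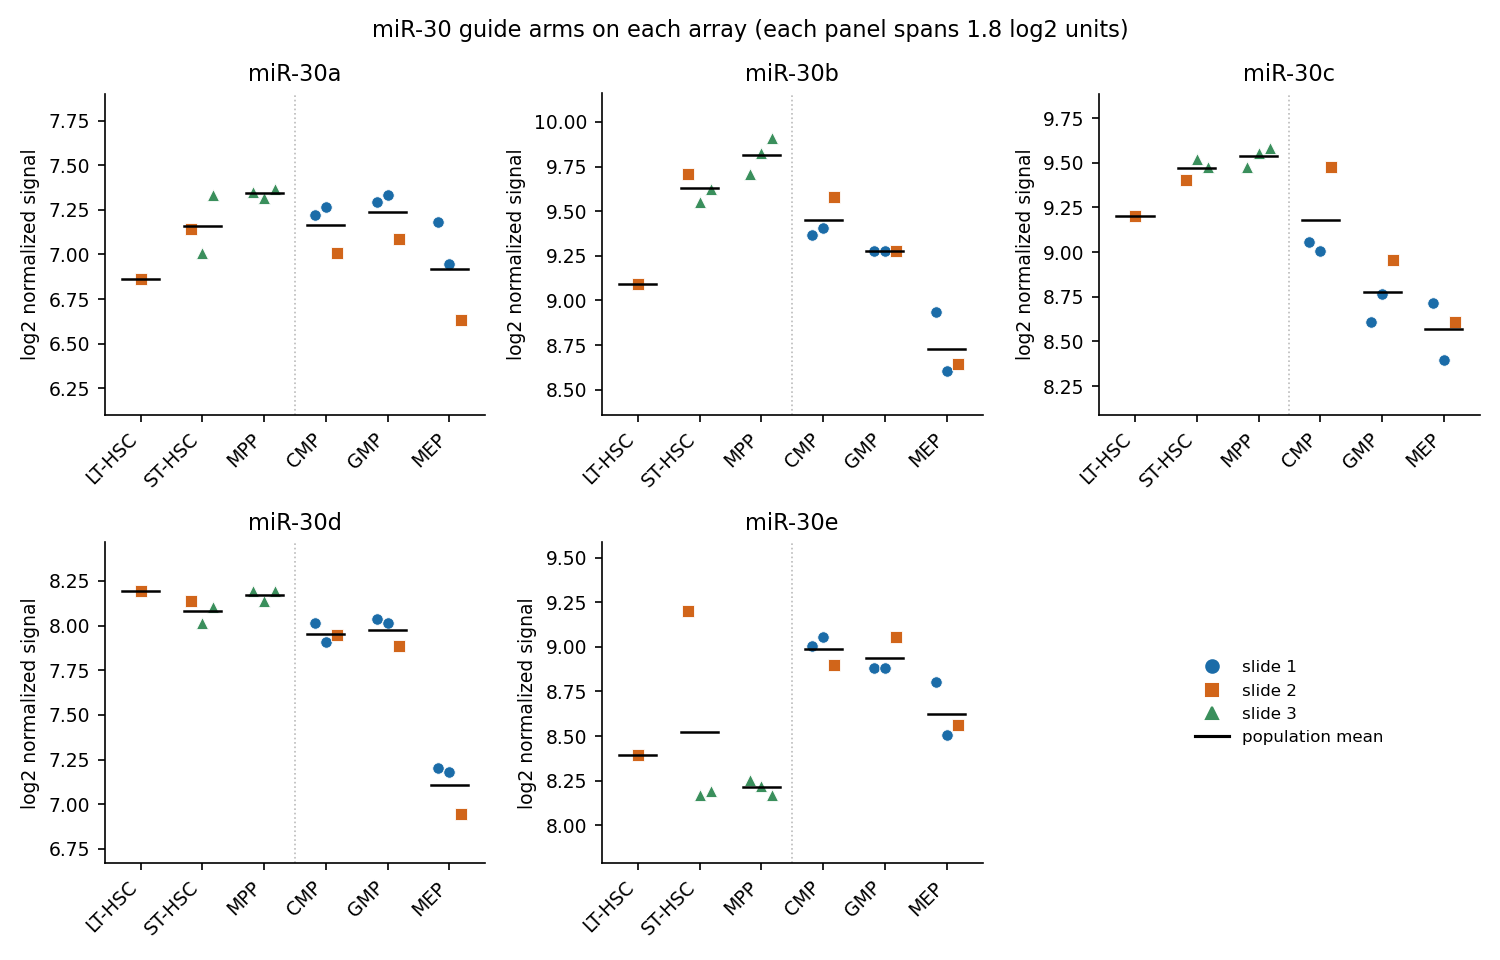
Log2 normalized signal (y axis, 1.8 units in each panel) of the 5 guide arms on each of 16 arrays, by population (x axis), with symbols for the slide and a bar for the population mean. The 3 MEP arrays lie below all 13 others for miR-30b and miR-30d, and for miR-30e the ST-HSC array on slide 2 (9.20) stands above the pair on slide 3 (8.17 and 8.19).

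The pair from chromosome 15 was lowest in MEP. The level of miR-30d on the MEP arrays was 7.20, 7.18 and 6.95 (mean 7.11 ± 0.142, SD, n = 3). On the 13 other arrays it lay between 7.88 and 8.19, namely 8.19 in LT-HSC, 8.14, 8.01 and 8.10 in ST-HSC, 8.19, 8.14 and 8.19 in MPP, 8.01, 7.91 and 7.95 in CMP and 8.04, 8.01 and 7.88 in GMP. The MEP arrays were thus apart from all others, and the other 5 populations lay close together. In the order of its population means (LT-HSC, MPP, ST-HSC, GMP, CMP, MEP, from high to low), only the step from CMP to MEP was called between neighbours, with a log2 difference of 0.85 (95% confidence interval 0.51 to 1.19, adjusted p = 0.000437), in a comparison that called 64.6% of all miRs. Of its 15 pairs of populations 5 were called, the 5 with MEP.

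For miR-30b, the MEP arrays stood at 8.93, 8.61 and 8.65 (mean 8.73 ± 0.178, SD, n = 3) and the others between 9.09 and 9.91. Its level was 9.09 in LT-HSC, 9.71, 9.55 and 9.62 in ST-HSC, 9.71, 9.83 and 9.91 in MPP, 9.37, 9.40 and 9.58 in CMP and 9.28 on each GMP array, where the probe took the same rank 3 times. So MEP was again apart from the rest, but the level also ran down from MPP through ST-HSC, CMP and GMP to LT-HSC. No step between neighbours in this order was called (differences of 0.17 to 0.36, adjusted p of 0.296 to 0.736), while 6 of its 15 pairs of populations were, 4 of them with MEP.

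The level of miR-30c was highest in the HSC subsets. It stood at 9.20 in LT-HSC, 9.40, 9.52 and 9.48 in ST-HSC (mean 9.47 ± 0.0601, SD, n = 3) and 9.48, 9.55 and 9.58 in MPP (9.54 ± 0.053). It was 9.06, 9.004 and 9.48 in CMP, 8.61, 8.76 and 8.95 in GMP (8.77 ± 0.174) and 8.71, 8.40 and 8.61 in MEP (8.57 ± 0.162). GMP and MEP lay below every HSC array, and CMP 3, on slide 2, reached the HSC range whereas CMP 1 and 2, on slide 1, did not. No neighbours in the order MPP, ST-HSC, LT-HSC, CMP, GMP, MEP were called, and 5 of 15 pairs of populations were.

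For miR-30e the order was a different one, with CMP and GMP highest. Its level was 9.004, 9.06 and 8.90 in CMP (8.99 ± 0.0803, SD, n = 3), 8.88, 8.88 and 9.06 in GMP (8.94 ± 0.103) and 8.80, 8.51 and 8.56 in MEP (8.62 ± 0.157). It was 8.40 in LT-HSC, 9.20, 8.17 and 8.19 in ST-HSC (8.52 ± 0.589) and 8.26, 8.22 and 8.17 in MPP (8.22 ± 0.0421). The 5 arrays of slide 3 were the lowest of all 16, and ST-HSC 1, which lay on slide 2, was the highest. No neighbours in the order CMP, GMP, MEP, ST-HSC, LT-HSC, MPP were called, and 2 of 15 pairs of populations were, both with MPP.

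The level of miR-30a was nearly flat by its brightest probe. It was 6.86 in LT-HSC, 7.14, 7.01 and 7.33 in ST-HSC, 7.35, 7.31 and 7.37 in MPP, 7.22, 7.26 and 7.01 in CMP, 7.29, 7.33 and 7.08 in GMP and 7.18, 6.95 and 6.63 in MEP. MEP and LT-HSC held the lowest arrays and MPP the highest, and 0 of its 15 pairs of populations were called.

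HSC subsets against myeloid progenitors was the first comparison of the study. Here miR-30b, miR-30c and miR-30d were higher in the HSC subsets and miR-30e was lower, so that 4 of 5 members were called, beside 48.1% of all miRs (25.3% higher and 22.8% lower). The 7 HSC arrays and the 9 myeloid arrays overlapped for every member. For miR-30c the HSC arrays ran from 9.20 to 9.58 (median 9.48) and the myeloid arrays from 8.40 to 9.48 (median 8.76), a difference of 0.56 ± 0.124 (SE) or 1.47-fold, with a 95% confidence interval of 1.23 to 1.77 (adjusted p = 0.0025). The difference was 0.47 ± 0.105 (SE) for miR-30d, 1.38-fold (adjusted p = 0.00269), with myeloid arrays from 6.95 to 8.04 and HSC arrays from 8.01 to 8.19. For miR-30b it was 0.36 ± 0.111, 1.28-fold (adjusted p = 0.0172). These calls of miR-30d and miR-30b rested largely on MEP. For miR-30d no pair of an HSC subset with CMP or GMP was called (differences of 0.11 to 0.24, limma adjusted p of 0.291 to 0.612). Each HSC subset was above MEP, by 0.98 to 1.08. For miR-30b only MPP against GMP was called among such pairs (0.54, adjusted p = 0.0199), and LT-HSC lay below CMP and GMP. These are bulk samples, in which fewer cells that hold a miR and less of it per cell cannot be told apart.

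The fall of miR-30e in the HSC subsets, from a median of 8.88 on the myeloid arrays to 8.22, was of the same size in the other direction. Its difference was -0.47 ± 0.165 (SE), or 1.39-fold lower (adjusted p = 0.0321). With slide as a term it was 0.11 (adjusted p = 0.570), and on slide 2 alone, with 2 HSC against 3 myeloid arrays, it was -0.04. Without ST-HSC 2, ST-HSC 3, MPP 2, MPP 3, CMP 2 or MEP 1 the call was lost (adjusted p of 0.0538 to 0.0585). Slide and population cannot be told apart for this difference.

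With the same term, miR-30b kept its call at 0.41 (adjusted p = 0.0391) and miR-30d at 0.60 (0.00163), while miR-30c was at 0.34 (0.0897). With the mean of its probes miR-30b was at 0.29 (0.0671). The difference of miR-30a was 0.02 (adjusted p = 0.908). On slide 2 alone the differences were 0.23 for miR-30b, 0.29 for miR-30c and 0.57 for miR-30d, and 0 of 5 members passed even an unadjusted p under 0.05 with these 5 arrays. The direction also depended on the scaling. When arrays were scaled to the 75th percentile of all probes, the median of all tested miRs moved from 0.06 to -0.14 and miR-30b and miR-30d fell to -0.20 and -0.08, which is -0.06 and 0.07 relative to that median, against 0.30 and 0.41 relative to it after quantile normalization. Of all calls in this comparison, 52.6% were higher in the HSC subsets after quantile normalization and 41.7% under that scaling. For miR-30e the relative value was -0.53 after quantile normalization and -0.89 under that scaling.

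**Figure D2:**
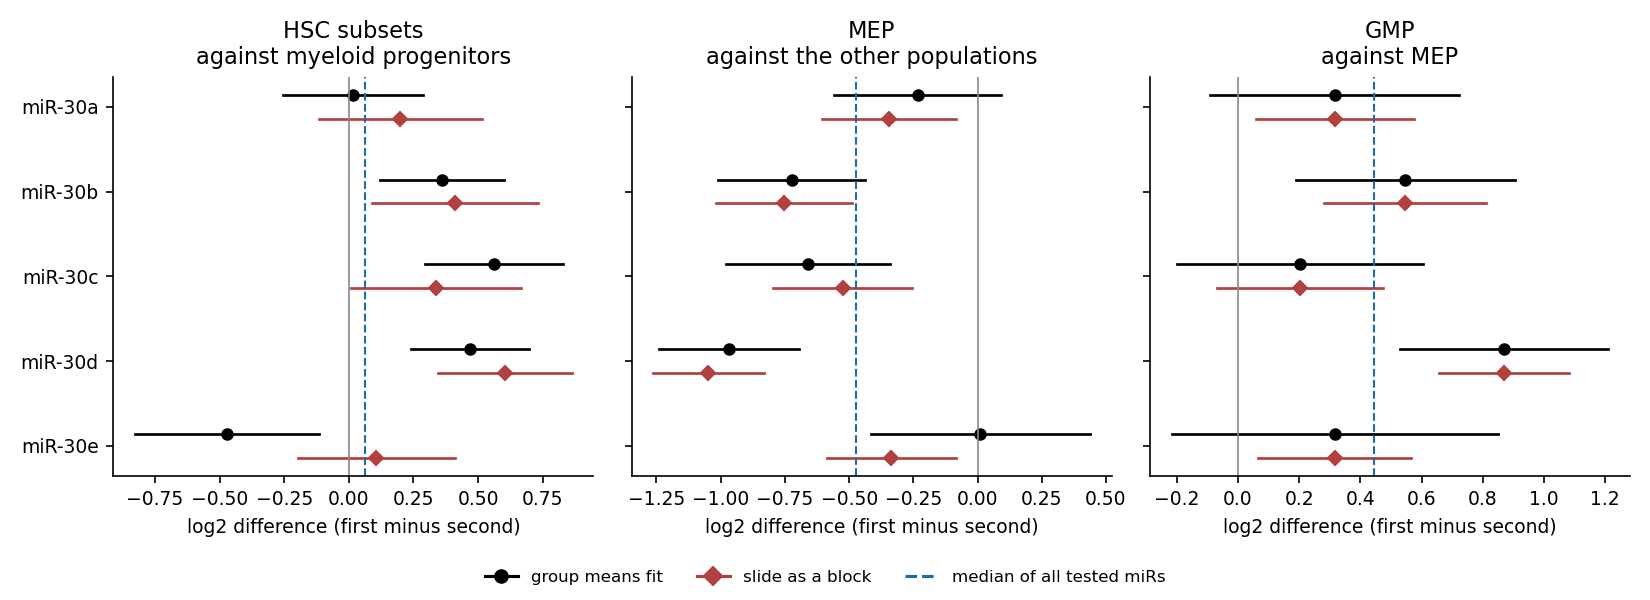
Log2 difference (x axis) of each guide arm (y axis) in 3 comparisons, with 95% confidence intervals, from the fit of population means (circles) and with slide as a term (diamonds). The dashed line is the median over all 237 tested miRs, -0.47 for MEP against the other populations, and the miR-30e difference between HSC subsets and myeloid progenitors passes from -0.47 to 0.11 once slide is a term.

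MEP held the lowest population means of miR-30b, miR-30c and miR-30d. Against the mean of the 5 other populations, 3 of 5 members were lower in MEP, miR-30d, miR-30b and miR-30c, beside 68.4% of all miRs called and 44.3% called lower. The difference of miR-30d was -0.97 ± 0.126 (SE), or 1.96-fold lower, with a 95% confidence interval of 1.62 to 2.36 (adjusted p = 1.61e-05). It was -0.72 ± 0.133 or 1.65-fold lower for miR-30b (adjusted p = 0.000324) and -0.66 ± 0.149 or 1.58-fold lower for miR-30c (0.0015). The calls of these 3 were kept without any single array and with slide as a term (-1.05, -0.75 and -0.53). Without normalization between arrays all 3 lost their calls, at -0.69, -0.70 and -0.71 (limma adjusted p = 0.296, 0.289 and 0.255).

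In the same comparison miR-30a differed by -0.23 (adjusted p = 0.185) and miR-30e by 0.01 (0.967). With slide as a term both were lower and called, at -0.34 each (adjusted p = 0.0185 and 0.0176). Most miRs were lower in MEP on this scale. The median over all 237 was -0.47, and relative to it miR-30d stood at -0.49, miR-30b at -0.25 and miR-30c at -0.19, while miR-30a stood at 0.24 and miR-30e at 0.48. The first 3 stayed below the median of all miRs and miR-30e above it under every scaling tried.

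GMP and MEP are sister branches of myeloid development, and both were hybridised on slides 1 and 2. Of the members, 2 of 5 were higher in GMP, beside 62.9% of all miRs called and 40.9% called higher. These were the chromosome 15 pair, miR-30d at 0.87 ± 0.158 (SE), 1.83-fold (adjusted p = 0.000346), and miR-30b at 0.55 ± 0.166, 1.46-fold (adjusted p = 0.011). Both held within slide 1 (0.83 and 0.51, adjusted p = 0.00129 and 0.0248), and the single arrays of slide 2 differed by 0.94 and 0.63. The 3 GMP arrays lay above all 3 MEP arrays also for miR-30e (8.88 to 9.06 against 8.51 to 8.80), where the difference of 0.32 did not pass (adjusted p = 0.281). The differences of miR-30a (0.32, adjusted p = 0.165) and miR-30c (0.20, 0.354) did not pass either, and the median of all miRs was 0.44. With slide as a term miR-30a and miR-30e were called (adjusted p = 0.0274 and 0.0235), with the mean of the probes miR-30c (0.60, 0.0179) and miR-30e (0.68, 0.0213), and under scaling to the 75th percentile of all probes all 5 members. Under scaling to the 75th percentile of probes well above background, miR-30d fell to 0.31 and lost its call (adjusted p = 0.054), miR-30b fell to 0.35 (0.0402), and miR-30a stood at -0.29 (0.0906).

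GMP against the other 5 populations called 48.1% of all miRs, 19% lower in GMP, and 1 of 5 members. That was miR-30c at -0.42 ± 0.149 (SE), 1.34-fold lower (adjusted p = 0.0346). The call was lost with slide as a term (-0.28, adjusted p = 0.0798), with the mean of the probes (-0.33, 0.0967) and without MPP 2, MPP 3, GMP 1 or GMP 2, and the sign turned under scaling to the 75th percentile of all probes (0.41). The difference of miR-30e, 0.39 with an adjusted p of 0.119, passed without ST-HSC 1 (adjusted p = 0.0038), with the mean of its probes (0.59, 0.0185), under scaling to the 75th percentile of all probes (1.22, 0.00161) and without normalization (1.52, 0.0302), and was 0.04 with slide as a term.

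Within the HSC subsets little was called. ST-HSC against MPP called 4.64% of all miRs and 0 of 5 members by limma, 0 also at an unadjusted p under 0.05. The differences ran from -0.19 for miR-30b (95% confidence interval -0.55 to 0.17) to 0.31 for miR-30e (-0.23 to 0.84), and within slide 3 that of miR-30e was -0.03. LT-HSC against ST-HSC and MPP called 29.1% of all miRs, 21.1% lower in LT-HSC, and 1 member, miR-30b at -0.63 ± 0.219 (SE), 1.55-fold lower (adjusted p = 0.0448). LT-HSC had 1 array, assumed to vary like the other populations. The call was lost with the replicate number as a block (adjusted p = 0.0731), with the mean of the probes (0.0538), under scaling to the 75th percentile of probes well above background (-0.35, adjusted p = 0.146, where miR-30d was called higher at 0.49, 0.04) and on leaving out 9 of 15 other arrays, namely ST-HSC 3, MPP 1 to 3, CMP 1 and 2, GMP 1 and 2 or MEP 2 (adjusted p up to 0.0854). The miR-30b level on this array, 9.09, lay between MEP and the other HSC arrays, as did that of miR-451 and the other MEP markers there. Of the other members called lower in MEP, miR-30c at 9.20 lay there too. In contrast, miR-30d had its highest population mean on this array, 8.19, against 7.11 in MEP. The part of MEP-like RNA in these values was not tested. With slide as a term miR-30e was also lower in LT-HSC (-0.82, adjusted p = 0.0068), where ST-HSC 1 at 9.20 was the single other HSC array of its slide.

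Whether members of a locus move together was asked of their log2 ratio on each array. The ratio has no meaning as a level, because the probes differ, but it stays constant if both normalized levels change alike. Quantile normalization does not scale all signals of an array by the same factor. The ratio need therefore not stay constant where both signals change alike before it. It changed across the populations for all 10 of the 10 pairs of members (permutation test of F, 100000 resamples, adjusted over the 10 pairs, adjusted p of 0.0015 to 0.0429), and for 7 of 10 when arrays were permuted within slides, a test chosen after seeing the data. The pairs differed in how far and where the ratio moved. Without GMP 1 or GMP 2 the number was 6 of 10.

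The ratio of the chromosome 15 pair had close means over the arrays of both sides of the design. The log2 ratio of miR-30b over miR-30d averaged 1.49 on the HSC arrays and 1.47 on the myeloid arrays, a difference of 0.02 (exact permutation test, adjusted p = 0.854). By population it was 1.52 to 1.57 in ST-HSC, 1.52 to 1.72 in MPP, 1.35 to 1.63 in CMP, 1.24 to 1.39 in GMP and 1.43 to 1.73 in MEP. Only LT-HSC stood apart, at 0.90. This array pulled down the HSC mean, and every ST-HSC and MPP array lay above that mean. The close means of the sides therefore do not show that the ratio was kept. The changes across populations passed the permutation test (adjusted p = 0.00617, 0.0238 within slides), where GMP was low and LT-HSC lower still after quantile normalization. The low place of GMP beside MEP depended on that normalization. Without it GMP differed from MEP by 1.44 for miR-30b and 1.40 for miR-30d, against 0.55 and 0.87 after it. LT-HSC differed from ST-HSC and MPP by -2.87 and -2.03 without it. The ratios given here are of the brightest probes. For GMP against the other populations those gave -0.07 for miR-30b and 0.08 for miR-30d, and the shorter probes 0.24 and 0.10. On slide 2 alone the sides differed by -0.34 (exact permutation p = 0.3, with LT-HSC as 1 of the 2 HSC arrays). Over the 6 population means, which share slides and the normalization, the levels of the 2 members had a Pearson r of 0.75.

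The chromosome 4 pair did not keep its ratio. The log2 ratio of miR-30c over miR-30e averaged 1.09 on the HSC arrays and -0.01 on the myeloid arrays, a difference of 1.09 (exact permutation test, adjusted p = 0.000874), the widest of the 10 pairs. It was 1.29 and 1.35 in ST-HSC on slide 3 but 0.20 on slide 2, 1.22 to 1.41 in MPP and 0.81 in LT-HSC. In CMP it was -0.05 and 0.05 on slide 1 and 0.58 on slide 2, in GMP -0.27 to -0.10 and in MEP -0.11 to 0.05. The highest ratios were thus those of slide 3. On slide 2 alone the sides differed by 0.33 (exact permutation p = 0.4, where 2 against 3 arrays allow no p below 0.1), and across populations the change did not pass within slides (adjusted p = 0.164). The r of the 6 population means was -0.54.

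**Figure D3:**
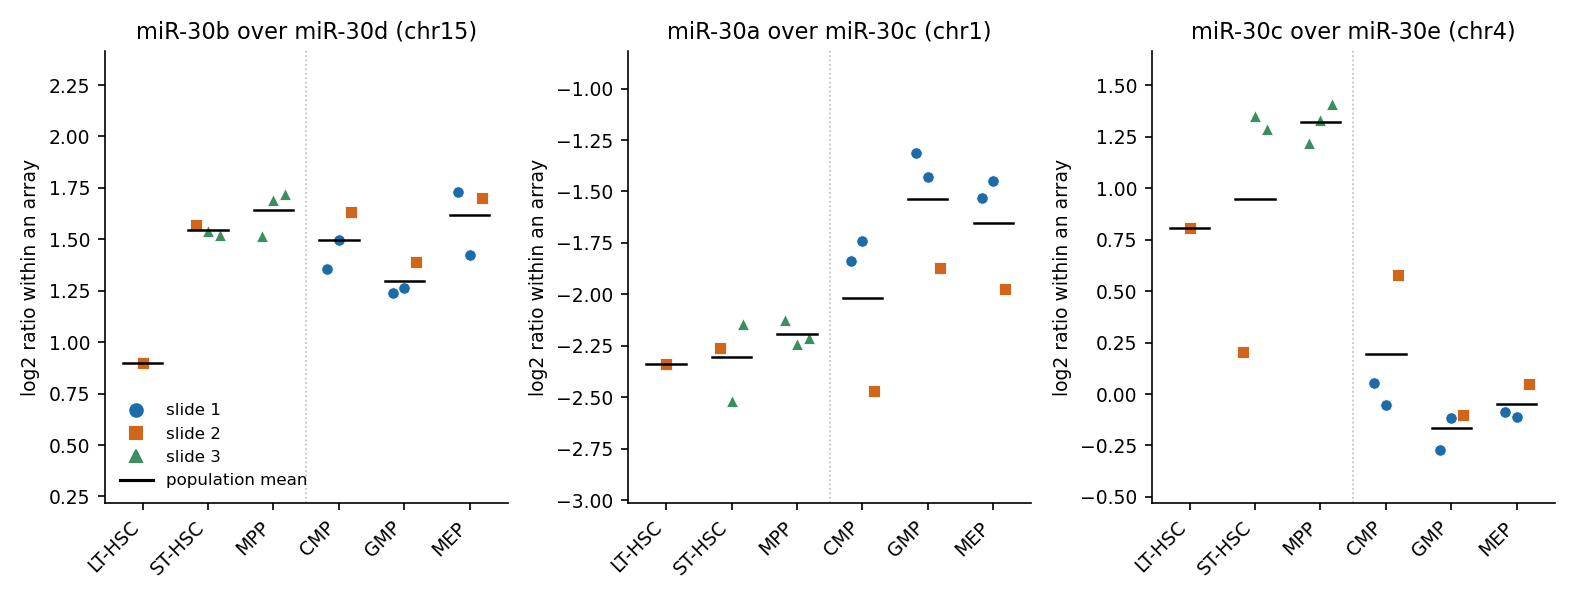
Log2 ratio of 2 guide arms within an array (y axis) by population (x axis), for the pairs of chromosomes 15, 1 and 4, with symbols for the slide and a bar for the population mean. The miR-30b over miR-30d ratio lies between 1.24 and 1.73 outside LT-HSC, and the miR-30c over miR-30e ratio reaches 1.22 to 1.41 only on slide 3.

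The chromosome 1 pair also moved. The ratio of miR-30a over miR-30c averaged -2.26 on the HSC arrays and -1.74 on the myeloid arrays, a difference of -0.53 (exact permutation test, adjusted p = 0.00892). It was -1.43 to -1.32 in GMP on slide 1 and -1.87 on slide 2, and -1.53 to -1.45 in MEP on slide 1 and -1.97 on slide 2. On slide 2 alone the sides differed by -0.20 (exact permutation p = 0.5). Some pairs from different loci had a higher r than those of one locus. The r of the population means was 0.87 for miR-30b with miR-30c, 0.83 for miR-30a with miR-30b and 0.79 for miR-30c with miR-30d, and the difference of miR-30b over miR-30c between the sides, -0.14, did not pass (adjusted p = 0.199). The 4 pairs with miR-30e differed between HSC subsets and myeloid progenitors by 0.57 to 1.09 in size (adjusted p of 0.000874 to 0.0108). In all 7 of 10 pairs did. On slide 2 alone no pair could pass the test, for the number of arrays there.

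Each member has 2 or 3 probes that share one end and differ by 1 base in length, and they did not always move alike. For the chromosome 15 pair the shorter probes gave the same direction in MEP, -1.03 for miR-30d and -0.96 for miR-30b. The shorter miR-30b probe gave 0.997 against 0.55 for GMP over MEP, and 0.24 against -0.07 for GMP over the other populations. The shorter miR-30c probe gave a larger difference, -1.45 in MEP against -0.66, and 1.0002 against 0.20 for GMP over MEP. The shorter miR-30e probe gave -0.45 in MEP against 0.01, and 1.04 against 0.32 for GMP over MEP. Both shorter miR-30a probes turned the direction, with 0.31 and 0.42 in MEP against -0.23, and -0.35 and -0.49 between HSC subsets and myeloid progenitors against 0.02. Which probe is nearer to the level of the miR was not tested, and the part of other members in their signal was not tested.

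**Figure D4:**
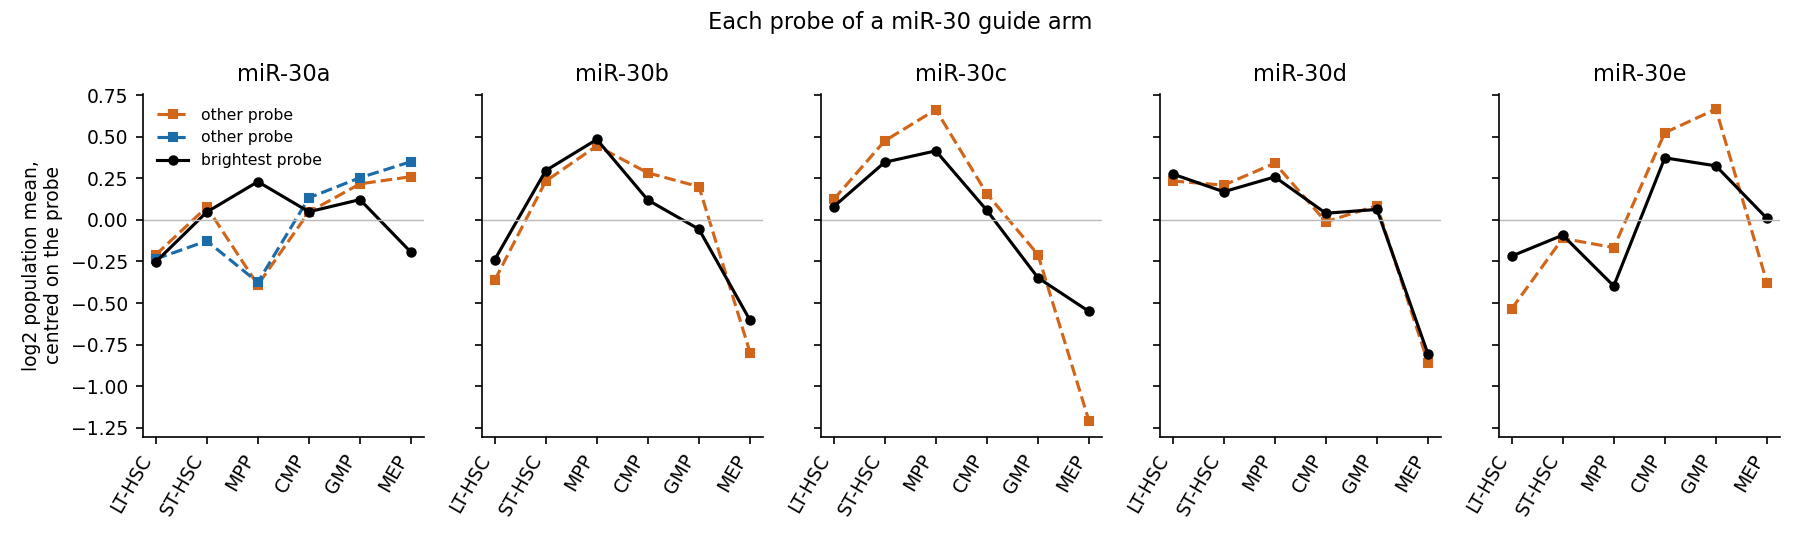
Population means of each probe on the log2 scale, centred on the mean of that probe (y axis), by population (x axis), with the brightest probe as a solid line and the other probes dashed. The probes of miR-30d run together, while both shorter miR-30a probes rise in MEP (0.31 and 0.42 against the other populations) where the brightest falls (-0.23).

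The star arm is the other strand of the hairpin and is usually degraded, so it reports on the hairpin and on how the strands are kept. Of the star arms 5 were on the array, and miR-30b*, miR-30c-1* and miR-30e* passed the detection filter, while miR-30a* and miR-30c-2* did not. The 4 star arms found in RefSeq are shown with their seeds in capitals, as the star arms of both miR-30c hairpins differ in sequence where the guide does not.
miR-30c-1*: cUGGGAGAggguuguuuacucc
miR-30c-2*: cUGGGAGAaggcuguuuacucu
miR-30a*: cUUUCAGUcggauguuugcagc
miR-30e*: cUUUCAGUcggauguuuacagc
The miR-30c star arms differed at 3 of 22 positions (G9A, U12C and C22U, from miR-30c-1* to miR-30c-2*). Whether a probe for one of them also bound the other was not tested.

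The level of miR-30c-1* was highest in MEP, at 4.95, 5.67 and 5.69, opposite to its guide arm. It stood at 4.28 in LT-HSC, 3.78, 3.93 and 3.33 in ST-HSC, 3.32, 3.28 and 3.53 in MPP, 3.07, 2.80 and 3.09 in CMP and 3.36, 3.20 and 3.68 in GMP. All 3 MEP arrays lay above the 13 others. The probe was well above background on 3 of 3 MEP and 3 of 3 MPP arrays, on 1 of 3 in ST-HSC and in GMP, and on 0 of 3 CMP arrays and the LT-HSC array. Between MPP and MEP, where it was measured on every array, the difference was -2.06 ± 0.245 (SE; adjusted p = 7.09e-06), though these populations shared no slide. With each CMP array raised to the lowest level of any probe well above background on it, MEP was 2.19-fold higher. MEP against the other populations was called (adjusted p = 2.32e-06), where 24.1% of all miRs were called higher, but the fitted size rests in part on arrays where the probe was not well above background. Only the longest of its 4 probes passed the filter. Of the miR-30c-2* probes none passed, and the longer had means of 4.03 in MEP and 1.62 to 2.25 elsewhere.

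The level of miR-30e* was lowest in MEP and LT-HSC. It was 3.99, 4.01 and 4.03 in MEP and 3.54 in LT-HSC, against 5.21, 4.70 and 4.95 in ST-HSC, 5.13, 5.29 and 5.44 in MPP, 5.14, 5.31 and 4.99 in CMP and 4.92, 5.29 and 4.84 in GMP. These 2 populations did not overlap with the other 4. In MEP 2 of 3 arrays held this probe well above background, against 3 of 3 arrays of ST-HSC, MPP, CMP and GMP each and 0 of 1 in LT-HSC, so sizes against MEP are not firm. The fitted difference of MEP from the other populations was -0.78 ± 0.158 (SE; adjusted p = 0.000682), or -1.09 without LT-HSC, and that of GMP from MEP was 1.01 ± 0.197 (adjusted p = 0.000641). With LT-HSC raised to the lowest level of any probe well above background on its array, ST-HSC and MPP were 1.6-fold higher. For miR-30b* the F test did not pass (adjusted p = 0.343).

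**Figure D5:**
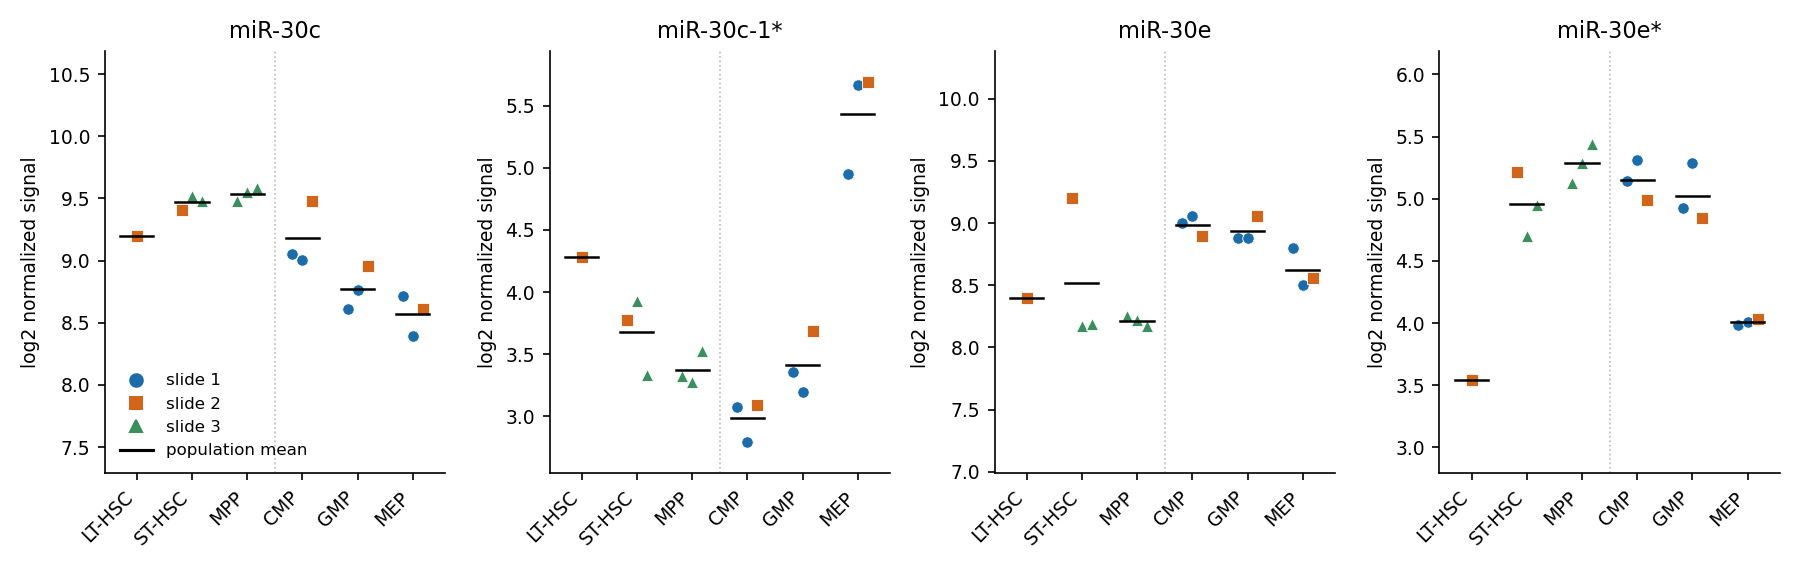
Log2 normalized signal (y axis, 3.4 units in each panel) of miR-30c and miR-30e and of the star arms miR-30c-1* and miR-30e* on each array, by population (x axis), with symbols for the slide and a bar for the population mean. In MEP miR-30c-1* reaches 4.95 to 5.69, above all 13 other arrays, and miR-30e* falls to 3.99 to 4.03.

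The miRs whose population means followed each member most closely were not of the family. Among 105 candidates well above background on all arrays, over 6 population means and as a description, miR-30d was most like miR-140* (r = 0.98), miR-23a (0.97) and miR-26a (0.94), and miR-30b most like miR-155 (0.98), miR-196b (0.97) and miR-322 (0.95). The nearest to miR-30c were miR-196b (0.95), miR-10a (0.93) and miR-107 (0.92), and to miR-30a miR-103, miR-423-5p (0.95 each) and miR-350 (0.94). The nearest to miR-30e were miR-20a (0.95), miR-15a (0.94) and miR-142-3p (0.92). These points share slides and the normalization.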

How the data were processed

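MiR levels were measured on 16 one-colour Cy3 Agilent mouse miR arrays. The deposited scanner files hold spot intensity, background-subtracted by Feature Extraction (10.2.1.3, and 9.5.3.1 for slide 1) and not normalized between arrays. Per the study's methods the authors quantile normalized with limma, and the log2 values they deposited, which rank as the median foreground, served as an alternative. Here unmarked non-control spots were averaged per probe, quantile normalized, raised to a floor of 3.07 units and log2 transformed. Of these, 493 probes of 237 miRs had at least 0.5 of their spots well above background on 3 or more arrays, and each miR was represented by its brightest such probe. Population means were fitted to all arrays in limma 3.58.1 (R 4.3.3, 10 residual and 3.1 prior degrees of freedom), two-sided, and called at an adjusted p under 0.05 over the 237 miRs. Ratios of member pairs were tested by permutation (Python 3.11.15, scipy 1.17.1). The fit was tested on simulated data.

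Groups came from the sample titles, and titles without a replicate number were numbered in order. Per the methods animals were pooled for each replicate. Where replicates of a population share a pool, p-values measure only technical spread. The number of arrays limits the precision. The named miRs were the members, their star arms, cell type markers and, for each member, the 3 others with the most similar population means. Members and lists were chosen with earlier results of these data known. Alternatives covered scaling, background, floor, filter, probe choice, deposited values, intensity trend, slide and replicate blocks, single slides and each array left out. Same-numbered CMP, GMP and MEP arrays deviated together (r of 0.227 to 0.632 over miRs), and their numbers go with slides. ST-HSC and MPP arrays did not (-0.043 to 0.123).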

Additional observations from a re-analysis of the deposited data

Results flagged for a closer look

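In 4 of 16 groups of arrays tested, 1 array stood apart from its group by Dixon's criterion. Chance gives about 1 in 20 where all arrays come from the same population. These groups joined the arrays of all HSC subsets or of all myeloid progenitors, over different slides. The count can therefore not be set against that rate. The level of miR-30e on ST-HSC 1 was 9.20, against 8.17 to 8.40 on the other 6 HSC arrays, with a gap of 0.783 of the range. The level of miR-30e* in LT-HSC was 3.54, against 4.70 to 5.44 (gap 0.61). That of miR-30b* was at the floor of 1.62 in LT-HSC, against 2.84 to 3.52 (gap 0.64), and 4.79 on MEP 1, against 1.62 to 3.04 on the other myeloid arrays (gap 0.552). No test of a cause was made for these.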

How the results depend on the processing

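Scaling to the 75th percentile of all probes gave 5 members across the populations (3 after quantile normalization), 1 between HSC subsets and myeloid progenitors (4), 4 for GMP (1), 5 for GMP against MEP (2) and 2 for LT-HSC (1). Without normalization these were 1 for the HSC comparison, 0 for MEP (3), 0 for GMP against MEP and 2 for LT-HSC. Scaling to the 75th percentile of probes above background gave 1 for GMP against MEP (miR-30d lost) and, in LT-HSC, miR-30d in place of miR-30b, the mean of the passing probes 4 there and 0 for LT-HSC, with miR-30b lost in the HSC comparison and miR-30e in place of miR-30c in GMP, and a floor of 1 unit 0 for LT-HSC. With slide as a term the counts were 2, 5, 0, 4 and 2 for HSC, MEP, GMP, GMP against MEP and LT-HSC. Slide 2 alone gave 0 members and 0 pairs in the HSC comparison, where its 5 arrays allowed no pair to pass. Replicate number as a block changed only the miR-30b call in LT-HSC (1 to 0). Leaving out each array gave 3 to 4, 3 to 4, 3, 0 to 2, 2, 0 and 0 to 1 members across the populations and for HSC, MEP, GMP, GMP against MEP, ST-HSC and LT-HSC, and 6 to 10 and 6 to 7 pairs.

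Under scaling to the 75th percentile of all probes, signs turned for miR-30b (-0.20) and miR-30d (-0.0755) in the HSC comparison, for miR-30b (0.72) and miR-30c (0.41) in GMP and for the step of miR-30c from LT-HSC to CMP (-1.27). Without normalization they turned for miR-30b (-0.72), miR-30c (-0.47) and miR-30d (-0.59) in the HSC comparison, for miR-30c in GMP (0.71) and for the steps from LT-HSC of miR-30c to CMP (-2.70), miR-30d to MPP (-2.34) and miR-30e to MPP (-2.30). With slide as a term miR-30e turned to 0.11 (HSC), -0.34 (MEP), -0.82 (LT-HSC), 0.59 (ST-HSC over MEP) and -0.84 (LT-HSC over MPP). For miR-30e*, scaling to probes above background gave 0.50 (HSC) and -0.40 (GMP), and leaving out each array -0.17 to 0.39 (HSC), 0.39 without LT-HSC. For miR-30b* in MEP the latter gave -0.67 to 0.91, -0.67 without MEP 1. Settings other than leaving out an array, slide 1 alone and slide 2 alone among them, were counted for the single members' differences. Of these, 320 kept direction and call, 34 without a call moved, 16 gained and 19 lost a call and 11 turned. The share of all calls that were higher in the first group moved from 52.6% to 75.4% (75th percentile of probes above background) and 19.5% (none) in the HSC comparison, from 60.5% to 30.4% and 85.1% for GMP, from 65.1% to 47% for GMP against MEP (the former), and from 27.5% to 69.9% and 0% for LT-HSC. With all probes the share was 74.6% for GMP and 12.8% for LT-HSC. The causes were not tested.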
